A study of Mus musculus with 12 samples.

Results

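In mouse embryonic stem cells that made Ago2 with a FLAG and an HA tag, RNA pulled down with a FLAG antibody (the tagged IP) was set against the RNA of the same line without antibody (its input), to ask which small RNAs, which arms of each miRNA hairpin and which read lengths came down with Ago2. The members were chosen by sample label alone. They are the 2 libraries of the tagged IP and the 2 libraries of its input, 4 of the 12 samples of the series. All 4 came from TT-FHAgo2, a clonal line, so the values describe 1 clone; the cells were kept in 0.1 µg/mL doxycycline and induced with 2.5 µg/mL, the dose chosen to give Ago2 at the wildtype level. The design text of the series speaks of stem cells without Ago proteins, and doxycycline switched on the tagged Ago2 of this line. A gel fraction of 18 to 75 nt was cloned by circularization, so that a 5′ phosphate was not needed. The titles give each library 1 of 2 codes, called A and B here; A has reads of up to 50 nt and B of up to 51 nt, and the labels do not say what the codes mark. A FLAG IP from TT-Ago2 cells (doxycycline at the same doses, Ago2 without a tag; 2 libraries, with 2 input libraries) gives the background of the pull-down.

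Ago2 is the protein that holds a miRNA and carries it to messenger RNAs. Dicer cuts a short duplex out of the hairpin; 1 strand, the guide, stays in Ago2, and the other, the passenger, is usually shed and degraded. The guide pairs with its targets through the seed, bases 2 to 8 from its 5′ end. In mouse embryonic stem cells the miR-290-295 cluster is known as the main source of miRNAs.

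The mature arms on which the results turn are shown from RefSeq (GRCm38.p6), 5′ to 3′, with the seed in capitals. The most abundant arms come first, then arms that gained more or less than the typical arm, then both arms of hairpins whose arm balance differed.
miR-294-3p: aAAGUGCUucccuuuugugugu
miR-291a-3p: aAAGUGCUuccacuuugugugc
miR-295-3p: aAAGUGCUacuacuuuugagucu
miR-292a-5p: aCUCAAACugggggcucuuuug
miR-290a-5p: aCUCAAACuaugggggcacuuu
miR-293-5p: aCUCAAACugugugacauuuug
miR-96-5p: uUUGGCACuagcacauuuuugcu
miR-92a-3p: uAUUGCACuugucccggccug
miR-92a-1-5p: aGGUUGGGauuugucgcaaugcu
miR-295-5p: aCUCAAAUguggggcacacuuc
miR-294-5p: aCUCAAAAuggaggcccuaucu
miR-19b-1-5p: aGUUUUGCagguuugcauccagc
miR-466i-3p: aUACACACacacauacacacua
miR-1249-3p: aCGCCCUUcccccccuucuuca
miR-5126: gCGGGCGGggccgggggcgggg
miR-27a-3p: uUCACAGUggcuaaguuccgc
miR-27a-5p: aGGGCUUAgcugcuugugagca
miR-23a-3p: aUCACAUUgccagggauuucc
miR-23a-5p: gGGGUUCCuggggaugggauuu
miR-26b-5p: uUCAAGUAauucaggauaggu
miR-26b-3p: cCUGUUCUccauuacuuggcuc
miR-299a-5p: uGGUUUACcgucccacauacau
miR-299a-3p: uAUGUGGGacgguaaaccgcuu
miR-450b-5p: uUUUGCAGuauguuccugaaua
miR-450b-3p: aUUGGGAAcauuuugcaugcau
The first 6 lie in the miR-290-295 cluster, within hairpin exons on the plus strand of chromosome 7, with miR-290a-5p at chr7:3218639-3218660 and miR-295-3p at chr7:3220815-3220837. They share 2 seeds, AAGUGCU among the 3p arms and CUCAAAC among the 5p arms. The seeds of miR-295-5p and miR-294-5p also begin with CUCAAA. Sequences that carry the results outside hairpins are given with those results.

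The files held 16433759 and 30098249 reads in the tagged IP and 14956146 and 18579602 reads in its input. A count of 0 allows up to 3 reads, or 0.0997 to 0.201 CPM (counts scaled to a sum of 1000000 over all reads of the file); such floors cover counting error only, since copies made by PCR look the same as separate molecules. Reads matching a mature miRNA arm numbered 9487574 and 15030665 in the IP and 382547 and 288765 in the input, so the input sets the precision of every ratio. The labels do not say that the libraries of a group came from separate cultures, so p-values measure only the spread between these libraries. In such bulk RNA, fewer cells holding an RNA and less of it per cell cannot be told apart. The defining miRNAs of the labelled cell type were present: the miR-290-295 arms summed to 303912 and 211513 CPM in the IP and 13346 and 7882 CPM in the input. Arms of the liver list (miR-122 and its like) summed to 0.669 and 0.864 CPM in the IP and had no read in the input. Arms of the fibroblast, blood, neural and muscle lists were present, at 4551 and 4652, 6725 and 6102, 1032 and 1249, and 189 and 309 CPM in the IP against 161 and 92.5, 395 and 175, 36.8 and 25.3, and 10.3 and 6.41 CPM in the input; many of these arms are also made by stem cells, and their part in the results was not tested.

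Hairpin reads took more than 50% of both IP libraries, and every other annotated RNA class except the other small RNAs lay lower in both IP libraries than in both input libraries. Hairpins held 58.3 and 50.7% of IP reads against 3.07 and 1.81% of input reads, 19-fold more in code A and 28.1-fold more in code B. Of the reads that matched a transcript at all, hairpins were 95.8 and 95.8% in the IP and 23.2 and 16.5% in the input. The untagged FLAG IP held 11.1% hairpin reads on average, against 3.34% in its own input, so the background pull-down also raised their share. Small nucleolar RNAs, which guide the modification of other RNAs, were 0.0664 and 0.0580% of IP reads against 0.732 and 0.525% of input reads, a ratio of means of 0.0989. Annotated rRNA genes had 0.0643 and 0.106% against 0.720 and 0.651%, and mitochondrial genes 0.0600 and 0.0495% against 0.328 and 0.117%. The spliceosomal snRNAs had 0.190 and 0.256% in the tagged IP, against 0.915 and 0.751% in its input, and 2.91% in the untagged IP. Protein-coding transcripts had 1.06 and 1.02% against 3.02 and 2.29%. For the other small RNAs, which include 7SK and Y RNAs, the groups overlapped, with 0.0875 and 0.136% in the IP and 0.166 and 0.110% in the input. With 2 libraries a side an exact two-sided permutation test cannot go below p = 0.333, the value for each class whose groups did not overlap. Counting each distinct sequence once turned the direction for protein-coding reads, to a log2 ratio of 0.69.

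**Figure D1:**
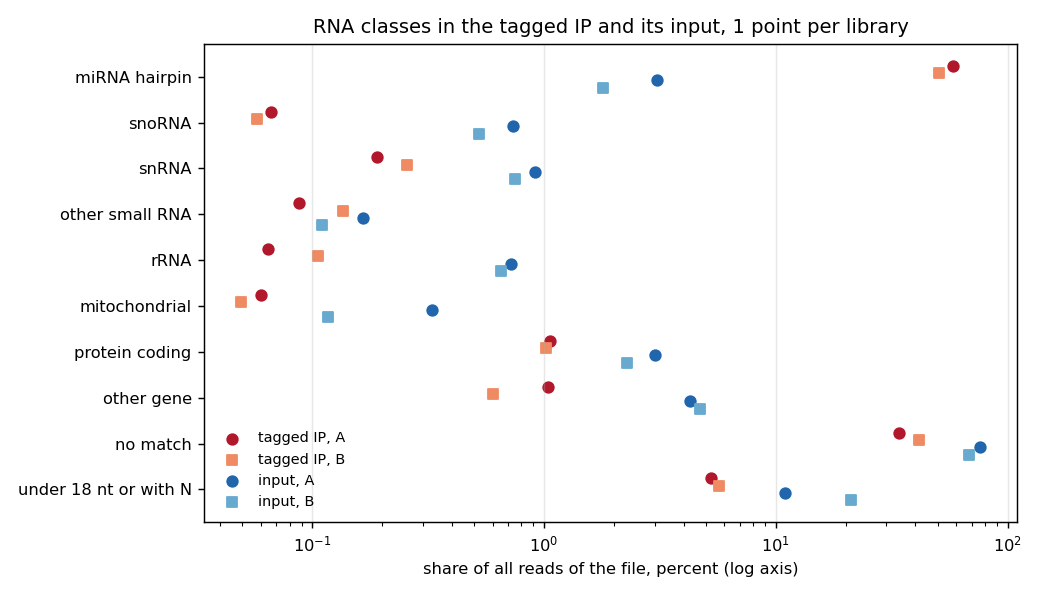
Share of all reads in each RNA class (percent, log axis), 1 point per library, for the tagged IP and its input; circles are code A and squares code B. Hairpin reads stand at 58.3 and 50.7% in the IP against 3.07 and 1.81% in the input, and the other small RNAs are the class whose groups overlap.

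The size of the reads also differed by class. Reads of 20 to 24 nt made up 95.2 and 92.6% of hairpin reads in the IP and 83.4 and 84.5% in the input, while hairpin reads of 25 nt or more were 2.56 and 3.75% in the IP and 13.4 and 8.72% in the input. Among protein-coding reads, 44.5 and 49.3% were of 20 to 24 nt in the IP, against 16.9 and 15.6% in the input. Small nucleolar RNA reads of that size were 37.6 and 35.3% in the IP and 18.6 and 27.1% in the input. For these classes both IP libraries lay on 1 side of both input libraries. For the rRNA genes the groups overlapped, with 29.0 and 29.8% against 23.7 and 38.8%.

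Nearly all miRNA arms were higher in the IP when each library was scaled to its total reads. Of 736 arms tested (edgeR, quasi-likelihood test with the Benjamini-Hochberg adjustment over all arms, called at an adjusted p under 0.05), 712 rose (96.7%) and 17 fell (2.31%), and the median arm was 31.9-fold higher. The most abundant arm, miR-294-3p, had 122226 and 81624 CPM in the IP and 6080 and 4485 CPM in the input. The next, miR-291a-3p, had 85205 and 53411 CPM in the IP and 3412 and 1614 CPM in the input. Both belong to the seed family that promotes the rapid cell cycle of stem cells, and in both the libraries of the IP stood far above those of the input. The 3p side of Mir292, for which no mature entry was matched, had 48881 and 41038 CPM in the IP and 2281 and 1190 CPM in the input. For miR-292a-5p the IP had 42332 and 34979 CPM and the input 2026 and 1718 CPM. For miR-295-3p the IP had 35126 and 21682 CPM and the input 1999 and 911 CPM. The other 5 of the 10 most abundant arms were miR-290a-5p, the 5p side of Mir135b, miR-293-5p, miR-92a-3p of the miR-17-92 cluster and miR-96-5p of the miR-183 cluster, a family known from sensory cells. Their ratios of means ran from 32.7 for the Mir135b arm to 83.7 for miR-293-5p; for the 5 arms ahead of them the ratios ran from 19.3 for miR-294-3p to 27.6 for miR-291a-3p.

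**Figure D2:**
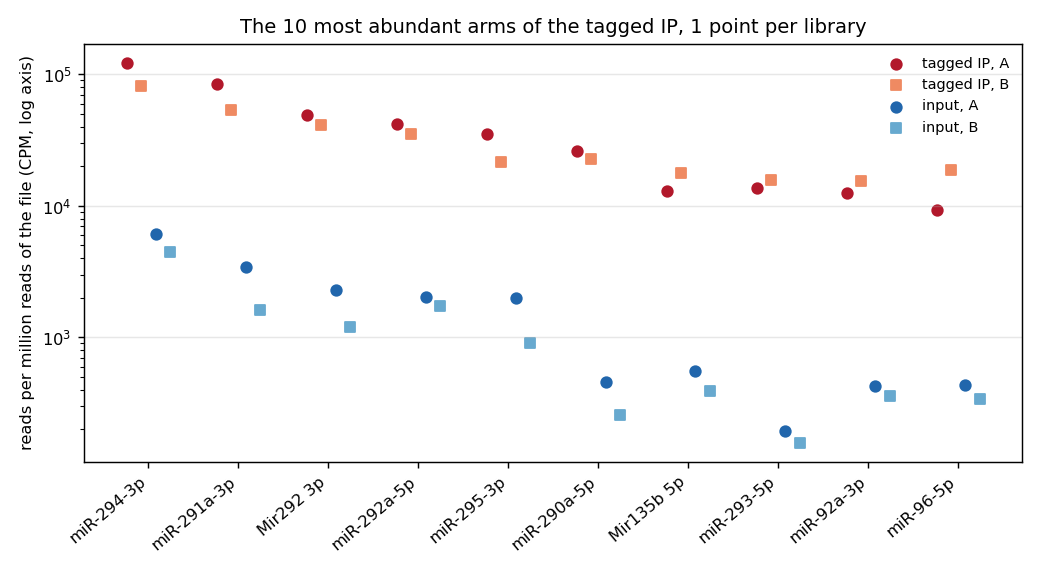
Level (CPM, log axis) of the 10 most abundant arms of the tagged IP, 1 point per library; circles are code A and squares code B. In each arm both IP libraries lie above both input libraries, and the gap is widest for miR-293-5p and miR-290a-5p.

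The gain of an arm was then set against that of the typical arm, by scaling the arm reads of each library so that the median arm lies near 0 (relative gain, log2). Of 559 arms tested in this way, 14 gained more (2.5%) and 45 gained less (8.05%) than the median arm; without any scaling factor 9 gained more, and with DESeq2 25 did. Leaving out 1 library left 6 arms above without IP library A, 1 without IP library B, 5 without input library A and 2 without input library B, so the calls above the median rest on all 4 libraries. Below the median, those fits called 30 to 42 arms.

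Within the miR-290-295 cluster the arms gained unequally, although all its arms tested rose by total reads. miR-290a-5p had 26071 and 22679 CPM in the IP and 454 and 258 CPM in the input, a relative gain of 1.19 ± 0.30 (SE, adjusted p = 0.0247). For miR-293-5p the IP had 13783 and 15719 CPM and the input 194 and 158 CPM, a relative gain of 1.39 ± 0.36 (adjusted p = 0.0276). miR-292a-5p, with the same seed, had a relative gain of -0.64 ± 0.43 (adjusted p = 0.425). The arms of seed AAGUGCU also did not pass, with relative gains of -0.70 for miR-294-3p (adjusted p = 0.353), -0.56 for miR-295-3p (adjusted p = 0.332) and -0.07 for miR-291a-3p (adjusted p = 0.946). Summed over its arms, the seed AAGUGCU had 242832 and 156852 CPM in the IP against 11503 and 7016 CPM in the input, and the seed CUCAAAC had 82186 and 73378 CPM against 2674 and 2135 CPM. These seeds were also taken as a share of arm reads pooled over the libraries of each group. The seed AAGUGCU was 35.5% in the IP and 45.0% in the input, and the seed CUCAAAC 14.5% in the IP and 11.9% in the input. IP library B, where the seed AAGUGCU had fewer CPM than in A, weighs most in the pooled IP, with 15030665 arm reads against 9487574. Further 5p arms of the cluster lay below the median arm: miR-295-5p had 452 and 260 CPM in the IP and 78.3 and 33.1 CPM in the input, a relative gain of -2.15 (adjusted p = 0.00476). For miR-294-5p the IP had 1207 and 650 CPM and the input 106 and 72.3 CPM, a relative gain of -1.57 (adjusted p = 0.0320). miR-290a-5p passed in none of the 4 fits that left out a library (adjusted p 0.0712 to 0.174), miR-293-5p and miR-294-5p each passed in 1, and miR-295-5p was lost without IP library B.

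Of the 14 arms above the median arm, 8 came from the miR-466, miR-467, miR-669 and miR-297 hairpins, a large family that lies mostly in an intron of Sfmbt2, a Polycomb gene. These were 8 of its 71 arms tested, beside 2.5% of all arms, and the median relative gain was 0.91, against 0.08 for all arms. The 5p side shared by Mir669d and 1 more hairpin had 353 and 1050 CPM in the IP and 3.41 and 2.69 CPM in the input, a relative gain of 2.87 (adjusted p = 0.0154). The 3p side shared by Mir466d and 2 more had 77.4 and 337 CPM in the IP and 0.802 and 0.377 CPM in the input (relative gain 3.59, adjusted p = 0.0184). miR-466i-3p, a run of CA and UA repeats, had 185 and 283 CPM in the IP and 2.14 and 0.592 CPM in the input (relative gain 2.66, adjusted p = 0.0320). In each of these arms both IP libraries lay far above both input libraries, and the input rested on few reads. A further 4 of the 3p sides of Mir466 hairpins had relative gains of 2.12 to 2.51; that of Mir466m was not on the list. The family summed to 17569 and 22821 CPM in the IP and 514 and 278 CPM in the input. Its arms rarely map to 1 hairpin alone, so a named hairpin stands for all that hold the read. All 7 Mir466 and Mir669 arms named here lost the call without IP library B and without input library B.

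Outside that family, miR-450b-3p of an X-linked cluster had 48.5 and 131 CPM in the IP and 0.401 and 0.215 CPM in the input, a relative gain of 3.30 ± 0.63 (adjusted p = 0.00430). It was called in 3 of 4 fits that left out a library and missed the threshold without input library A, at an adjusted p of 0.0541. miR-1249-3p, listed with the mirtrons, hairpins cut out by splicing in place of Drosha, had 147 and 139 CPM in the IP and 2.47 and 0.700 CPM in the input (relative gain 1.73, adjusted p = 0.0444) and passed in none of those fits. Among the 14 arms of mirtrons and start-site hairpins tested, 1 was above and 2 were below the median arm, beside 2.5% and 8.05% of all arms, and their median relative gain was 0.63. With so few arms these counts are close to the share over all arms. miR-484, whose hairpin begins at a transcription start, had 1563 and 1320 CPM in the IP and 43.3 and 30.5 CPM in the input, a relative gain of 0.33 (adjusted p = 0.656).

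Of the 45 arms below the median arm, 17 fell against the input by total reads, 15 rose by less than the typical arm, 7 did not pass by total reads and 6 were not tested there. The 17 that fell were scarce in the IP. miR-5126, a GC-rich annotation, had 5.17 and 8.37 CPM in the IP against 118 and 275 CPM in the input, a log2 change of -4.86 by total reads and a relative gain of -10.08 (adjusted p = 2.29e-05). Its reads were almost all fragments of 18 nt, 100 and 99.2% in the IP and 99.3 and 99.2% in the input, and not the printed mature form of 22 nt. The 3p side of Mir6240 had 9.31 and 13.9 CPM in the IP against 83.1 and 81.8 CPM in the input (relative gain -7.87, adjusted p = 7.98e-06). Both were called in every fit that left out a library. The other 15 had under 2 CPM in each IP library; miR-3473b, for example, had 0.487 and 0.133 CPM in the IP and 9.83 and 8.99 CPM in the input. In the single libraries of wildtype and Dicer-null cells, which were cloned by 5′ ligation and allow no test, the 9 of these arms with at least 100 wildtype reads kept a median of 0.805 of their wildtype level without Dicer. The median was 0.0243 for 10 of the arms that rose by less than the typical arm, and 0.00103 for all 386 arms with that many reads. Dicer is the enzyme that releases canonical miRNAs from their hairpins.

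The arms that rose, but by less than the typical arm, include miR-92a-1-5p and miR-19b-1-5p of the miR-17-92 cluster, which drives proliferation. None of the 6 arms of the seed AAAGUGC, which miR-17-5p and miR-20a-5p share with paralogs, was called, and their median relative gain was 0.35. miR-92a-1-5p had 128 and 109 CPM in the IP and 22.6 and 11.5 CPM in the input, a log2 change of 2.80 by total reads and a relative gain of -2.07 ± 0.37 (adjusted p = 0.00265). Its partner miR-92a-3p had 12475 and 15466 CPM in the IP and 425 and 357 CPM in the input (relative gain 0.16, adjusted p = 0.860). miR-19b-1-5p had 71.7 and 120 CPM in the IP and 22.5 and 9.80 CPM in the input, a relative gain of -2.27 ± 0.45 (adjusted p = 0.00525). miR-299a-3p of the imprinted Dlk1-Dio3 locus had 65.1 and 53.3 CPM in the IP and 7.15 and 5.06 CPM in the input (relative gain -1.68, adjusted p = 0.0255). In all of these both IP libraries stood above both input libraries by total reads and below them when scaled to the arm reads alone. miR-92a-1-5p was lost without IP library B, miR-19b-1-5p without IP library A, and miR-299a-3p in all 4 fits that left out a library.

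**Figure D3:**
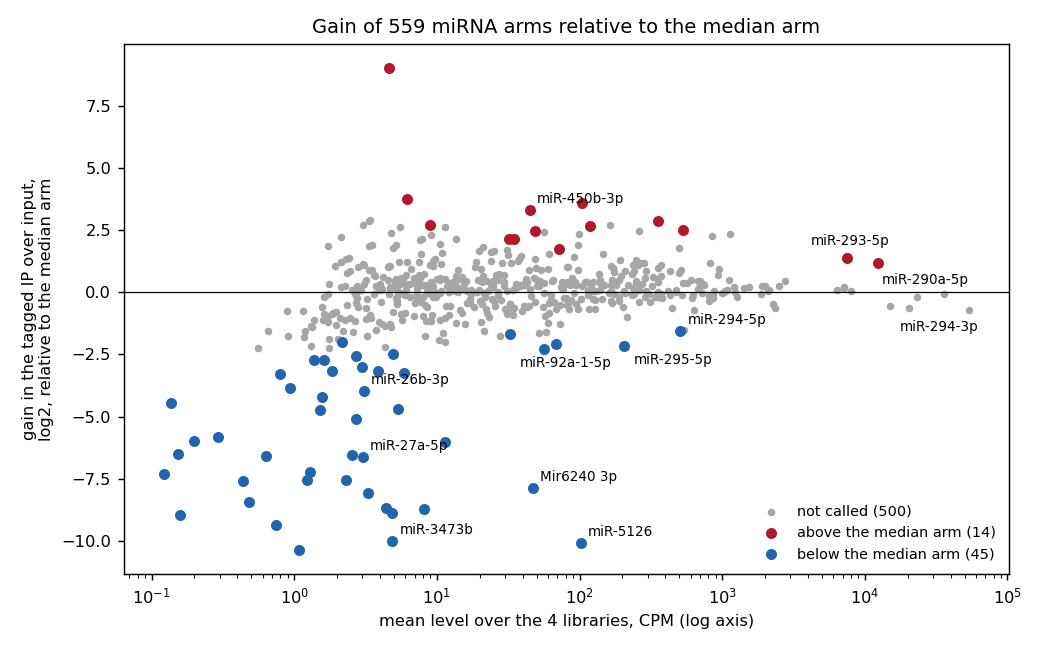
Relative gain in the tagged IP over its input (log2, median arm near 0) against the mean level over the 4 libraries (CPM, log axis), 1 point per arm, for 559 arms. The 14 arms called above the median arm are red and the 45 called below it blue; the arms with the lowest relative gains are mostly under 20 CPM, and the 2 most abundant called arms, miR-290a-5p and miR-293-5p, lie above 0.

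The 2 arms of a hairpin were compared directly, which does not depend on how libraries are scaled. The arm with more reads in the wildtype library, which belongs to neither group, was taken as the major arm. Of 226 hairpins with both arms tested, the 5p arm gained more in 14 (6.19%) and the 3p arm in 12 (5.31%). Among 223 with a major arm, the minor arm gained less in 141 and more in 82, with a median difference of -0.40 (log2), and among the 26 called it gained less in 21 and more in 5. Of single arms, 15 of 170 minor arms (8.82%) and 6 of 254 major arms (2.36%) lay below the median arm, beside 45 of all 559 arms (8.05%). The share of minor arms was thus close to that of all arms. Arms with no pair or a tie had the largest share, 24 of 135 (17.8%).

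The widest imbalance was in the miR-23/27/24 clusters, known for roles in blood vessels and lipid metabolism. In Mir27a the 5p arm was 0.241 and 0.211% of arm reads in the IP against 15.2 and 17.6% in the input, a log2 difference in gain of -6.42 (adjusted p = 2.2e-10). The untagged FLAG IP showed the same direction, with 1.02 and 0.873% against 14.6 and 26.8% in its own input. The imbalance was thus not particular to the tagged line. miR-27a-5p fell by total reads, with 1.40 and 1.56 CPM in the IP and 4.68 and 4.41 CPM in the input, while miR-27a-3p had 580 and 737 CPM in the IP and 26.1 and 20.7 CPM in the input. In the single libraries without a test, miR-27a-5p had 36.9 CPM with doxycycline and 36.2 CPM without it, and miR-27a-3p had 86.0 CPM with it and 2.0 CPM without it. In Mir23a the 5p arm was 0.196 and 0.156% in the IP and 3.82 and 4.11% in the input (difference -4.53, adjusted p = 8.55e-08). It was 0.283 and 0.308% in the untagged IP and 2.22 and 1.89% in the untagged input. Of the 11 arms of these clusters tested, 4 lay below the median arm, beside 8.05% of all arms, all of them 5p arms (of Mir23a, Mir23b, Mir27a and Mir27b), and the median relative gain was -1.12.

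Among hairpins of at least 20 CPM in the IP, the 3p arm lost most in Mir26b and Mir3068. The 3p arm of Mir26b was 0.159 and 0.185% of arm reads in the IP and 2.71 and 3.32% in the input, a log2 difference (5p minus 3p) of 4.12 (adjusted p = 1.4e-06). miR-26b-3p had 3.53 and 4.62 CPM in the IP and 2.41 and 1.72 CPM in the input (adjusted p = 0.120 by total reads), while miR-26b-5p had 2216 and 2489 CPM against 86.3 and 50.2 CPM. In Mir3068 the 3p arm was 6.70 and 5.16% in the IP against 45.6 and 62.2% in the input (difference 4.11, adjusted p = 4.49e-05). The 5p arms of Mir1983 (difference -4.67), Mir320 (-4.06) and Mir410 (-3.88) were also smaller shares in the IP. The untagged IP lay on the same side of its own input for Mir26b, Mir1983, Mir320, Mir410, Mir134 and Mir30d. For Mir3068 and Mir467e the untagged IP and its input overlapped. The calls for Mir27a, Mir23a, Mir26b, Mir1983, Mir320 and Mir410 held in all 4 fits that left out a library; that for Mir3068 was lost without IP library B, at an adjusted p of 0.0532. The smaller differences in Mir467e (3.18), Mir134 (2.99) and Mir30d (2.98) each held in 2 of those 4 fits and were lost without IP library B and, for the first pair, without input library A, or, for Mir30d, without IP library A.

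In 5 of the 26 called hairpins the arm that was minor in the wildtype library gained more than its partner. The share of the 5p arm of Mir299a was 84.4 and 88.4% in the IP, against 48.8 and 41.2% in the input, and 4.34% in the wildtype library. It was 74.9 and 79.5% in the untagged IP against 59.8 and 27.4% in the untagged input. miR-299a-5p had 353 and 408 CPM in the IP and 6.82 and 3.55 CPM in the input, while miR-299a-3p was the lower arm of the IP (difference 2.92, adjusted p = 0.0284). The single libraries, made by 5′ ligation, held 123 CPM of miR-299a-3p with doxycycline and 71.9 CPM without it, and 4.74 and 0.452 CPM of miR-299a-5p. In Mir450b the 3p arm was 64.5 and 86.6% of arm reads in the IP and 26.1 and 17.4% in the input. The difference was -3.74 (adjusted p = 0.00842). In the input miR-450b-5p led, as it did in the wildtype library (89.8% of arm reads). Its 5p share was also lower in the untagged IP than in the untagged input. The call for Mir299a was lost without IP library A, IP library B or input library B, and that for Mir450b without IP library B or input library B, at adjusted p up to 0.571. The remaining 3 were Mir543, Mir300 and Mir667.

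**Figure D4:**
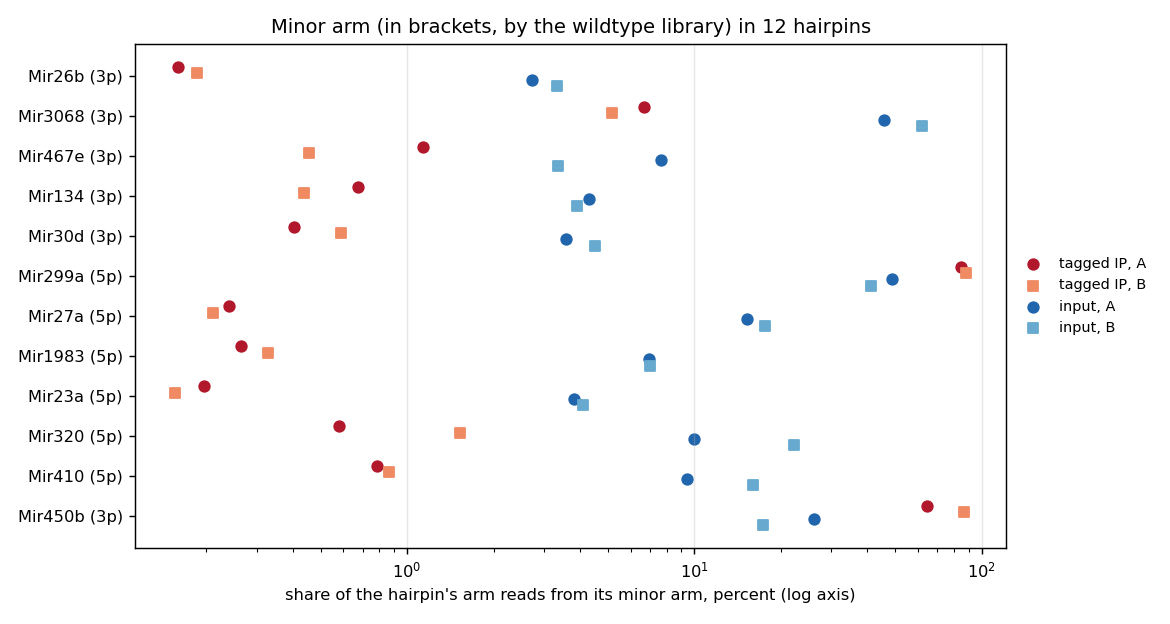
Share of each hairpin's arm reads that came from its minor arm (percent, log axis), 1 point per library, for the 12 hairpins with the widest arm imbalance. In 10 hairpins the IP points lie left of the input points; in Mir299a and Mir450b they lie right of them.

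Lists of miRNA families were described by their counts of called arms and their median relative gain, beside 2.5% of arms above, 8.05% below and a median of 0.08 over all arms. Of the 90 arms of the Dlk1-Dio3 locus tested, 3 lay below the median arm, and the median was 0.07. The miR-17-92 cluster and its paralogs had 3 below of 28 (median -0.15), and the miR-26 and miR-29 families 2 below of 9 (median -1.11). The miR-15/16, miR-30 and miR-148/130 groups had 1 arm below each, of 12, 11 and 12. The Dlk1-Dio3 locus lay under the share of all arms below the median, and the other counts are of 1 to 3 arms, with no test of a list. The medians of the remaining lists with arms tested ran from -0.41 for the muscle list to 1.16 for the miR-103 and miR-107 family, whose members are known from lipid metabolism. miR-103-3p had 596 and 423 CPM in the IP and 13.8 and 3.39 CPM in the input, and with a relative gain of 1.16 (adjusted p = 0.207) it did not pass.

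Read length differed little between the IP and its input when all arms were pooled. Reads of 22 nt were 57.9 and 50.4% of arm reads in the IP and 56.7 and 57.2% in the input, and the mean length was 22.12 and 22.11 nt in the IP and 22.14 and 22.03 nt in the input. Reads of 18 nt were fewer in the IP, at 0.508 and 0.892% against 1.06 and 2.77% of the input, with no overlap (exact two-sided permutation p = 0.333, the smallest possible). Part of this share came from miR-5126 and the 3p side of Mir6240, which both fell against the input. In the input, 99.3 and 99.2% of miR-5126 reads and 56.0 and 55.2% of those Mir6240 reads were of 18 nt. The share was not computed without them, so it does not show that other arms had fewer 18-nt reads. Of 124 arms with at least 100 reads in each library, 53 were shorter in the IP in both codes, 24 longer and 47 mixed, with a median difference of -0.0258 nt.

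Single arms differed more. Of 2412 combinations of arm and length, 2 passed the test of lengths within an arm (edgeR, 0.0829%), and 46 had an unadjusted p under 0.05. Both were 26-nt reads that lost ground: those of miR-290a-5p were 0.0100 and 0.00894% of the arm in the IP (43 and 61 reads) and 0.162 and 0.271% in the input (11 and 13 reads), a log2 difference of -3.06 (adjusted p = 0.000728). Those of miR-295-3p had a log2 difference of -2.36 (adjusted p = 0.0146), on 14 and 27 reads in the IP and 6 and 10 reads in the input; neither call held in every fit that left out a library, and 3 of those 4 fits called no length lower. Among commoner lengths, the 24-nt reads of miR-290a-5p were 4.04 and 3.40% in the IP and 21.2 and 21% in the input, while its 22-nt reads were 71.2 and 58.8% in the IP and 44.1 and 34.8% in the input. The 20-nt reads of miR-293-5p were 2.30 and 2.28% in the IP and 17.8 and 34.8% in the input. For miR-92a-1-5p, 21-nt reads were 3.84 and 8.75% in the IP and 43.2 and 46.0% in the input, and 23-nt reads, the length of the mature form, 94.3 and 87.2% against 51.2 and 48.4%. In these arms the groups did not overlap, but the adjusted p was 0.716 for the 24-nt reads of miR-290a-5p, 0.154 for the 20-nt reads of miR-293-5p and 0.228 for the 21-nt reads of miR-92a-1-5p.

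**Figure D5:**
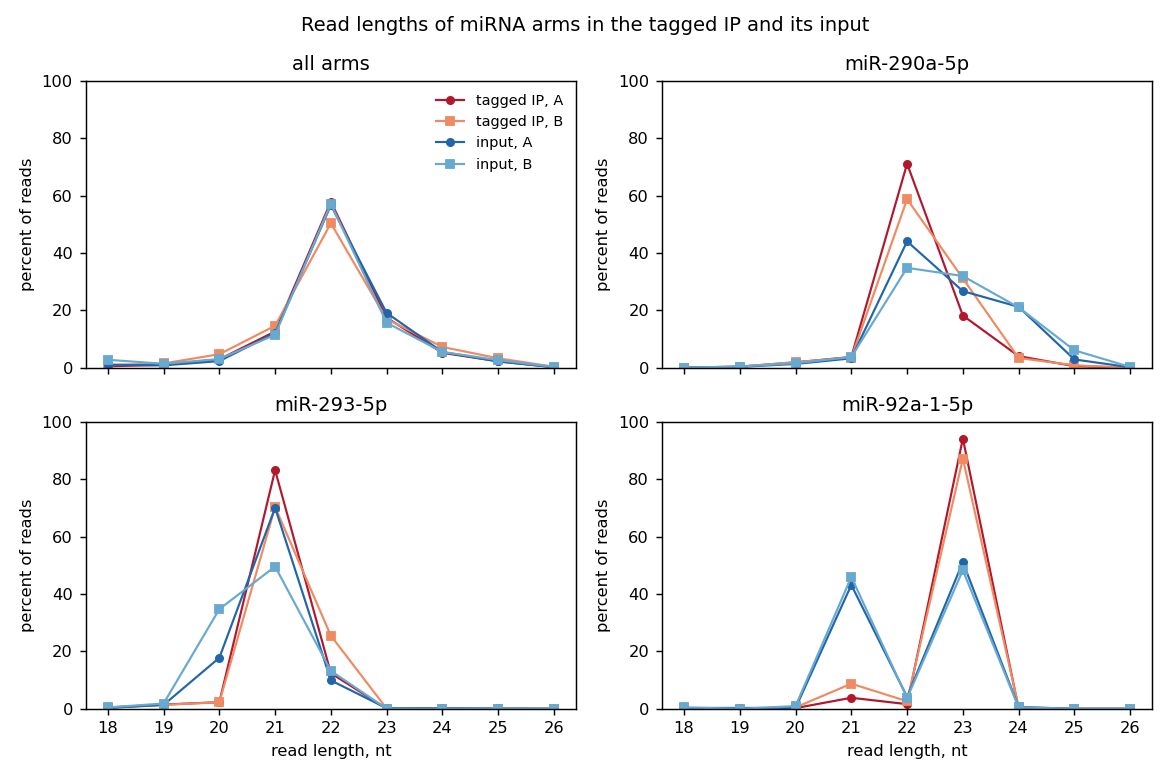
Percent of reads at each read length (18 to 26 nt), 1 line per library, for all arms pooled and for miR-290a-5p, miR-293-5p and miR-92a-1-5p; red lines are the tagged IP and blue lines the input. The pooled curves nearly coincide, while the input has more 24-nt reads of miR-290a-5p, more 20-nt reads of miR-293-5p and more 21-nt reads of miR-92a-1-5p than the IP.

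The position of the read ends overlapped between the groups. The 5′ end lay at the mature start in 86.6 and 77.2% of arm reads in the IP and 86.1 and 81.7% in the input. Reads beginning with U were 21.9 and 28.4% in the IP and 20.6 and 21.5% in the input. Those beginning with A were 72.6 and 65.4% against 73.0 and 72.6%. Neither pair of groups overlapped, but for A the IP library A (72.550%) and input library B (72.556%) were almost equal. IP library B stood furthest from the input. Arm reads with 1 base before the 5′ end that does not match the hairpin were counted apart from the exact matches. They were 14.7 and 26.6% of all arm reads in the IP and 14.7 and 30.5% in the input: they differed more between the codes than between the IP and its input. Where that base was G the groups differed, with 0.381 and 0.536% in the IP and 1.89 and 5.22% in the input; the untagged IP had 0.383% and its input 2.80%. At the 3′ end, miR-293-5p with an added A was 0.679 and 0.422% of the arm in the IP and 3.77 and 2.15% in the input, and miR-290a-5p with an added A 3.24 and 2.75% against 6.79 and 5.21%. Added 3′ bases are known to come from enzymes that extend small RNAs after Dicer has cut them.

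Outside hairpins, 6449 genes or sets of genes that share reads were tested by total reads, and 232 rose (3.6%) while 646 fell (10%). Small nucleolar RNAs fell most often, 276 of 342 tested, with 9 that rose and a median log2 change of -3.54. The snRNAs had 111 lower and 1 higher of 253, and the rRNA genes 61 lower of 90. Protein-coding genes had 100 lower and 196 higher (3.61%) of 5429, with a median of 0.07. Their share that rose was thus close to the 3.6% over all features. A gain as large as that of the median miRNA arm was reached by 89 called features, 82 of them protein-coding, beside 5429 of all 6449 tested. Within the fits that left out a library, 109 to 171 features rose and 225 to 517 fell; with only reads found in 1 gene, 101 rose and 361 fell.

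Some of the features that rose were led by short reads that share a run of letters. The commonest, of 22 nt, is shown because it led the most abundant feature outside hairpins, with bases 2 to 8 in capitals.
Leading 22-nt read: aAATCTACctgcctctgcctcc
It had 1004 and 905 CPM in the IP and 19.4 and 6.30 CPM in the input, with 115 and 229 CPM in the untagged IP, so both tagged IP libraries lay far above both input libraries. Transcripts of 16 genes hold it, Akap8, an anchor protein of protein kinase A, among them, and 10 genes hold its reverse complement. These transcripts thus do not assign it to 1 gene. No genome was searched, and reads of a hairpin missing from the annotation would also be counted outside hairpins. The single wildtype library had 1644 such reads (51 CPM) and the Dicer-null library none, which allows up to 0.0381 CPM; with doxycycline there were 14.7 CPM and without it 0.0754 CPM. The feature that holds it (Akap8 and 8 more genes) had 1010 and 913 CPM in the IP and 19.6 and 6.51 CPM in the input, a log2 change of 6.20 ± 0.91 (adjusted p = 2.14e-07). The core CCTGCCTCTGCC, taken from this read and searched on the read strand only, led 37 of the 232 features that rose (15.9%) and 47 of all 6449 tested (0.729%). These 37 summed to 2360 and 2524 CPM in the IP and 48.9 and 21.4 CPM in the input. The core was chosen from a read that was higher in the IP, and several of the features hold length variants of that read under different sets of genes, Akap8 among them, so these counts only describe the reads and are no independent evidence of a gain. Reads with CACACACA, also searched with the results known, led 25 of the 232 (10.8%) and 47 of all tested (0.729%).

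Other named features that rose include Tmem88b, at 97.5 and 190 CPM in the IP against 1.07 and 0.861 CPM in the input (log2 change 7.21, adjusted p = 1.13e-07). In Tmem88b, 99% of the IP reads were the 22-nt read shown above with 1 more A at its 5′ end. That longer read had no read in any of the single libraries, made by 5′ ligation. The 22-nt read had 1644 reads in the wildtype library and 410 with doxycycline. Whether the longer read was the 22-nt read with an added base was not tested, so Tmem88b does not stand as a separate gain. Khk, which encodes the first enzyme of fructose breakdown, had 75.9 and 80.6 CPM in the IP and 0.735 and 0.323 CPM in the input (log2 change 7.21, adjusted p = 5.71e-08). Its leading read was of 19 nt, GC-rich, and made up 78.7% of its IP reads, whereas 9.75% of its reads were of 20 to 24 nt. Cpsf4l had 78.3 and 91.4 CPM in the IP and 1.60 and 1.13 CPM in the input (log2 change 5.95, adjusted p = 5.82e-07). Zfp385c had 135 and 197 CPM in the IP against 3.81 and 1.51 CPM in the input. Its leading read, 72.3% of its IP reads, was the 22-nt read shown above with another last base. The gains of Tmem88b, Zfp385c and the Akap8 feature are thus not independent of each other. In Tmem88b, Khk, Cpsf4l and Zfp385c the groups were far apart, and the untagged IP averaged 14.5 to 33.5 CPM. For the histone gene Hist1h2bg the tagged IP had 44.7 and 199 CPM and the input 6.15 and 3.66 CPM (log2 change 4.63, adjusted p = 2.39e-05), but the untagged IP averaged 1061 CPM, above the tagged IP. The means of Polr2f, Tmem245 and Hist1h2bk were likewise higher in the untagged than in the tagged IP, at 478 against 71.1, 1075 against 67 and 1054 against 74.5 CPM.

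The features that fell most were non-coding RNAs and 2 protein-coding genes. Gm22574 had 1.83 and 0.764 CPM in the IP and 302 and 111 CPM in the input (log2 change -7.33, adjusted p = 5.71e-08). The mitochondrial serine tRNA mt-Ts2 had 3.47 and 3.59 CPM in the IP and 422 and 142 CPM in the input (-6.32, adjusted p = 1.95e-07). Itsn1, which acts in endocytosis, had 34.1 and 10.5 CPM in the IP and 592 and 1750 CPM in the input (-5.72, adjusted p = 7.78e-07). It was led by 1 GC-rich read of 18 nt, with 27.1 and 8.27 CPM in the IP and 399 and 1442 CPM in the input. Acer3, the other protein-coding gene, was likewise led by 1 read of 18 nt. The values of these 2 genes thus mostly describe 1 short read each and not the whole transcript. The small nucleolar RNAs Gm26330, Snord60 and Snora65 had log2 changes of -5.37, -5.09 and -4.95. Khk, Tmem88b, Cpsf4l, Zfp385c and the Akap8 feature among those that rose, and the 6 features with values here among those that fell, were called in all 4 fits that left out a library; those fits were not summarised for Hist1h2bg, Polr2f, Tmem245 and Hist1h2bk.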

How the data were processed

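The deposited files list distinct read sequences with the number of reads of each, as raw counts that the authors did not normalize; the sources used here do not give the trimming of reads. Per the labels' protocols, the 18 to 75 nt fraction of a gel was cloned by circularization. Reads of 18 nt or more were matched exactly, on the sense strand and over their whole length, to the 141767 transcripts of 55450 genes of GENCODE M21 (GRCm38), with hairpins of 2202 miRNA genes first. No genome was used, so nuclear tRNAs and 45S rRNA were not analysed as such. An arm is a RefSeq mature sequence (GRCm38.p6; 1685 of 1738 entries matched) with reads that start within 3 nt of its start and end within 5 nt of its end; for 485 arms without such an entry, the 5p or 3p side of the hairpin was used. CPM values divide by all reads of the file.

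Tests were edgeR 4.0.16 quasi-likelihood fits (R 4.3.3) over the 8 circularization libraries, 1 coefficient per group, the default filterByExpr and p-values adjusted by Benjamini-Hochberg over all features, called under 0.05. The relative fit scaled arm reads by the RLE factor; arm balance and read lengths used diffSpliceDGE. DESeq2 1.42.0 was the other tool. Alternatives were other scalings, no filter, the 4 libraries alone, a replicate block and leaving out each library. Further ones were reads of 20 to 24 nt, extra end bases, a narrow window and reads of 1 gene only. The main edgeR fits were also run on simulated counts with 1 fixed spread for all features. That run checks the code and not the calls made here. Shares were compared with exact permutation tests in scipy 1.17.1; matching used Python 3.11.15 with numba 0.67.0, and tables and plots numpy 2.4.6, pandas 2.3.3 and matplotlib 3.10.9.

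Named features follow a rule: the 10 most abundant arms, the 10 highest and 10 lowest called relative gains of at least 20 CPM whose groups do not overlap, the 2 most abundant arms per list, the 6 widest arm differences each way, and the 10 highest and 8 lowest genes. The text gives a part of them; other arms named with values, such as miR-27a-5p, miR-3473b and Hist1h2bg, were chosen after their values were seen. The members, the lists and the tests were chosen with earlier results of these data known.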

Additional observations from a re-analysis of the deposited data

How the results depend on the processing

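Ratios by total reads depend on the scaling by construction: TMM factors and DESeq2 centre on the features, here mostly miRNAs that rose together, so the median gain was 0.25 and 0.15 (log2) in place of 5.0, 16 and 25 arms were called higher and 38 and 51 lower, and called arms that had gained less than the median turned sign. Under TMM and DESeq2 the log2 change was -0.59 and -0.70 for miR-294-3p, -0.084 and -0.19 for the 3p side of Mir292, -0.53 and -0.64 for miR-292a-5p, -0.46 and -0.57 for miR-295-3p, -2.17 and -2.27 for miR-19b-1-5p, -2.05 and -2.16 for miR-295-5p, -1.97 and -2.08 for miR-92a-1-5p, -1.57 and -1.68 for miR-299a-3p, and -1.46 and -1.57 for miR-294-5p; DESeq2 gave -0.076 for miR-291a-3p. With reads of 20 to 24 nt, 7 arms were called lower by total reads, 9 above the median, the 5p arm gained more in 7 hairpins, and 358 genes were lower. With no filter, 25 arms were above and 69 below the median, the 5p arm gained more in 9 hairpins and 5 lengths lost. DESeq2 called 25 arms above the median, and arm totals with no factor 9. The 4 libraries of the tagged line alone called 1 length as gained. With reads of 1 gene only, 101 genes were higher and 361 lower.

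Leaving out 1 library gave 1 to 6 arms above and 30 to 42 below the median, 2 to 8 hairpins with more gain of the 5p arm and 5 to 8 of the 3p arm, 0 to 3 lengths lost, and 109 to 171 genes higher and 225 to 517 lower. Without 1 library the log2 ratio of the other small RNAs ran from -0.657 to 0.0235, the value without input library A, and with distinct sequences counted once that of protein-coding reads was 0.69. The cause of these moves was not tested.

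The codes give only 2 pairs, and the difference between codes in the IP correlated with that in the input at r = 0.344 across 736 arms, which are not independent replicates; the labels do not explain the codes, so whether they pair the libraries was not settled. With the code as a replicate block, 26 arms were above and 58 below the median, 365 genes were higher and 842 lower, 712 arms rose and 17 fell by total reads, and the arm balance calls were 17 and 11. The input, with 382547 and 288765 arm reads, limits the precision of scarce arms.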
